A study of Mus musculus with 4 samples.

Results

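The genes described here are 128 named genes whose RNA was high in mouse embryonic stem cells (ESCs) depleted of YTHDF2, lower again once wild-type YTHDF2 was put back, and high once more when the protein put back could not bind m6A. They were chosen from a table of 50559 genes by 3 log2 ratios of CPM (a gene's reads per 1000000 reads of its library, with 0.1 CPM added). A gene was taken when its mean count over the libraries was at least 100, when the ratio of knockdown to control was at least 0.8, when the ratio of wild-type construct to knockdown was at most -0.8, and when the ratio of mutant to wild-type construct was at least 0.6. Genes of chromosome Y were not considered, which left 12286 genes. Of these, 232 passed the 3 limits, and 104 of them were set aside by name, being predicted genes, clone names or members of gene families of the 2-cell embryo (*Zscan4*, *Usp17l*, *Tdpoz*, *Tcstv*, *Pramel* and 8 single genes). The remaining 128 genes made up 55.2% of those past the limits and 1.04% of all genes tested. All 3 ratios were used in the choice, so their values in these genes are a description and were not tested.

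The libraries were poly(A)+ RNA-seq of E14 ESCs, a male mouse line, grown with LIF and carrying a tdTomato reporter driven by the MERVL promoter. All 4 libraries came from cells with a stably integrated lentiviral hairpin and a second construct: a scrambled hairpin with empty vector (shScram+EV), a *Ythdf2* hairpin with empty vector (shYthdf2+EV), and the same *Ythdf2* hairpin with wild-type (shYthdf2+DF2WT) or m6A-binding mutant YTHDF2 (shYthdf2+DF2Mut). Each group was 1 library, so nothing below was tested against replicates and no p-values are given. The 95% intervals given are exact Clopper-Pearson intervals on read pairs and cover counting error only. Read counts are always given in the order shScram+EV, shYthdf2+EV, shYthdf2+DF2WT, shYthdf2+DF2Mut.

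YTHDF2 is a cytoplasmic reader of N6-methyladenosine (m6A), the most common internal mark of mRNA. It binds methylated transcripts through its YTH domain and brings in the CCR4-NOT deadenylase, which shortens the poly(A) tail and starts decay. The mark is placed by a methyltransferase complex on adenosines in short DRACH sequences, of which GGACT is the best known, and is found mostly in long internal exons and near stop codons. In ESCs a small, changing share of cells enters a state that resembles the 2-cell embryo (2C-like), and many genes set aside above belong to that state.

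*Ythdf2* had 2806, 662, 7661 and 6925 reads. It was lower in the knockdown library (log2 ratio -2.22, 95% interval -2.40 to -2.05) and above the control in both rescue libraries, and reads from the construct and from the endogenous gene cannot be told apart. The 2 constructs gave nearly the same level (mutant over wild type, -0.10). Library totals lay between 31533129 and 35742335 reads, and 3 reads corresponded to between 0.0839 and 0.0951 CPM. The ESC genes *Pou5f1*, *Nanog* and *Sox2* were abundant in every library, with at least 11511 reads each. Reads of 7 Y-linked genes, however, numbered 4, 672, 105 and 602. They were nearly absent from the library labelled shScram+EV and stood in the same order across libraries as the genes described here. Their part in the results was not tested, and it bears on every value below.

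GGAC and GGACT words were read from the transcripts of these genes, since the choice of genes had not used sequence. Other DRACH words were not counted. A GGACT word lay within 200 bases of the stop codon in 33 of the 117 genes with a coding transcript (28.2%), against 39.7% of all genes tested. The windows below are those of the 8 genes with such a word whose weakest step was largest (the weakest step is the smallest of a gene's 3 ratios, each divided by its limit). Every GGACT is in capitals, and each window is centred on the word nearest the stop codon and written along the transcript from the GENCODE vM21 annotation of GRCm38 (mm10).

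Rdh1, chr10:127765499-127765519, plus strand, last exon, coding: tctctactGGACTtccatgaa
Nrcam, chr12:44598395-44598415, plus strand, last exon, coding: ttcagacaGGACTgtgaaaaa
AF067061, chr13:120264187-120264207, plus strand, single exon, coding: gggagaaaGGACTggatcttg
Arhgef26, chr3:62460318-62460338, plus strand, last exon, coding: gattgctaGGACTggaaacca
Spesp1, chr9:62272393-62272413, minus strand, last exon, 3′ UTR: taagcaaaGGACTtgttcaca
Hecw2, chr1:53813221-53813241, minus strand, last exon, coding: gtacctttGGACTtgagtgac
Tmem28, chrX:99846287-99846307, plus strand, last exon, coding: ggGGACTgGGACTggagacac
Cass4, chr2:172427947-172427967, plus strand, last exon, coding: tacacaggGGACTtcatctgt

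These windows are mostly coding, whereas of the 29 such genes outside chromosome 18 the nearest word was in the 3′ UTR in 19 and in the coding sequence in 10. A word says only that the letters are there; no methylation was measured in these libraries. Over whole transcripts, the 122 genes with a transcript in the annotation held a median of 3.70 GGAC words and 0.94 GGACT words per kb, against 4.10 and 1.03 in all genes tested. The density of both words was thus slightly lower than in all genes tested. The median GC content of these transcripts was also lower (46.4% against 50%), and the densities were not adjusted for it.

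Across the 128 genes the median log2 ratio was 1.38 in knockdown over control (range 0.80 to 3.00, median of all tested genes 0.04), -1.05 in wild-type construct over knockdown (range -2.36 to -0.81, all genes 0.01) and 1.05 in mutant over wild-type construct (range 0.61 to 2.17, all genes 0.00). As background, 4.21% of all genes tested passed the limit on the first ratio, 2.32% that on the second and 5.79% that on the third. The 3 ratios share libraries and are not independent. The same limits in the opposite directions were met by 143 genes (1.16% of those tested, against 1.89% in this direction, names disregarded). Among names the rule keeps, the opposite pattern was met by 130 genes, against the 128 described. The single limits were passed that way by 2.37%, 2.3% and 7.95%. In all 128 genes the counting intervals of the 3 ratios lay away from 0, and 57 genes differed at least 2-fold in each step.

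**Figure D1:**
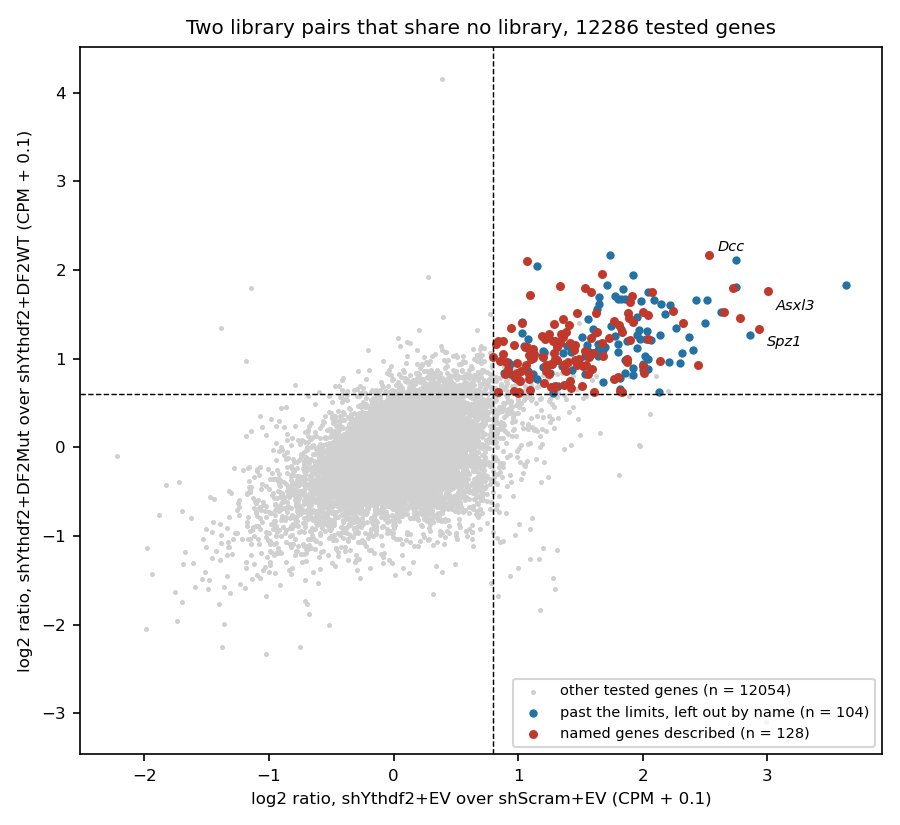
Each point is a tested gene. The x axis compares shYthdf2+EV with shScram+EV as a log2 ratio and the y axis does so for shYthdf2+DF2Mut and shYthdf2+DF2WT; these ratios have no library in common, with dashed lines at the limits of 0.8 and 0.6. The 128 named genes (red) lie among the 104 genes left out by name (blue) in the upper right corner, because the rule put both there.

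Mutant over knockdown and wild type over control had no limit of their own in the rule. Each is, however, the sum of 2 ratios that the rule did limit. The choice of genes therefore shaped their values and shares, which are a description and were not tested. The mutant library was near the knockdown library, with a median log2 ratio of -0.05 (range -0.94 to 0.75). For 101 of the 128 genes the interval of this ratio held 0, for 11 it lay above 0 and for 16 below. The mutant was above the knockdown in 49 genes (38.3%, against 53.7% of all genes tested). *Spz1* (-0.94), *Ccser1* (-0.70) and *BC147527* (-0.66) were lowest in the mutant relative to the knockdown, and *Ptprd* (0.75), *Asxl3* (0.58) and *Nrk* (0.51) highest. The wild-type library had a median log2 ratio of 0.30 to the control. It was above the control in 103 genes (80.5%, against 58.7% of all genes tested; interval above 0 in 39) and below it in 25 (interval below 0 in 2, among them *St8sia6*). *Asxl3* (1.82), *Hoxd13* (1.40) and *Ccdc85a* (1.23) stayed furthest above the control.

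**Figure D2:**
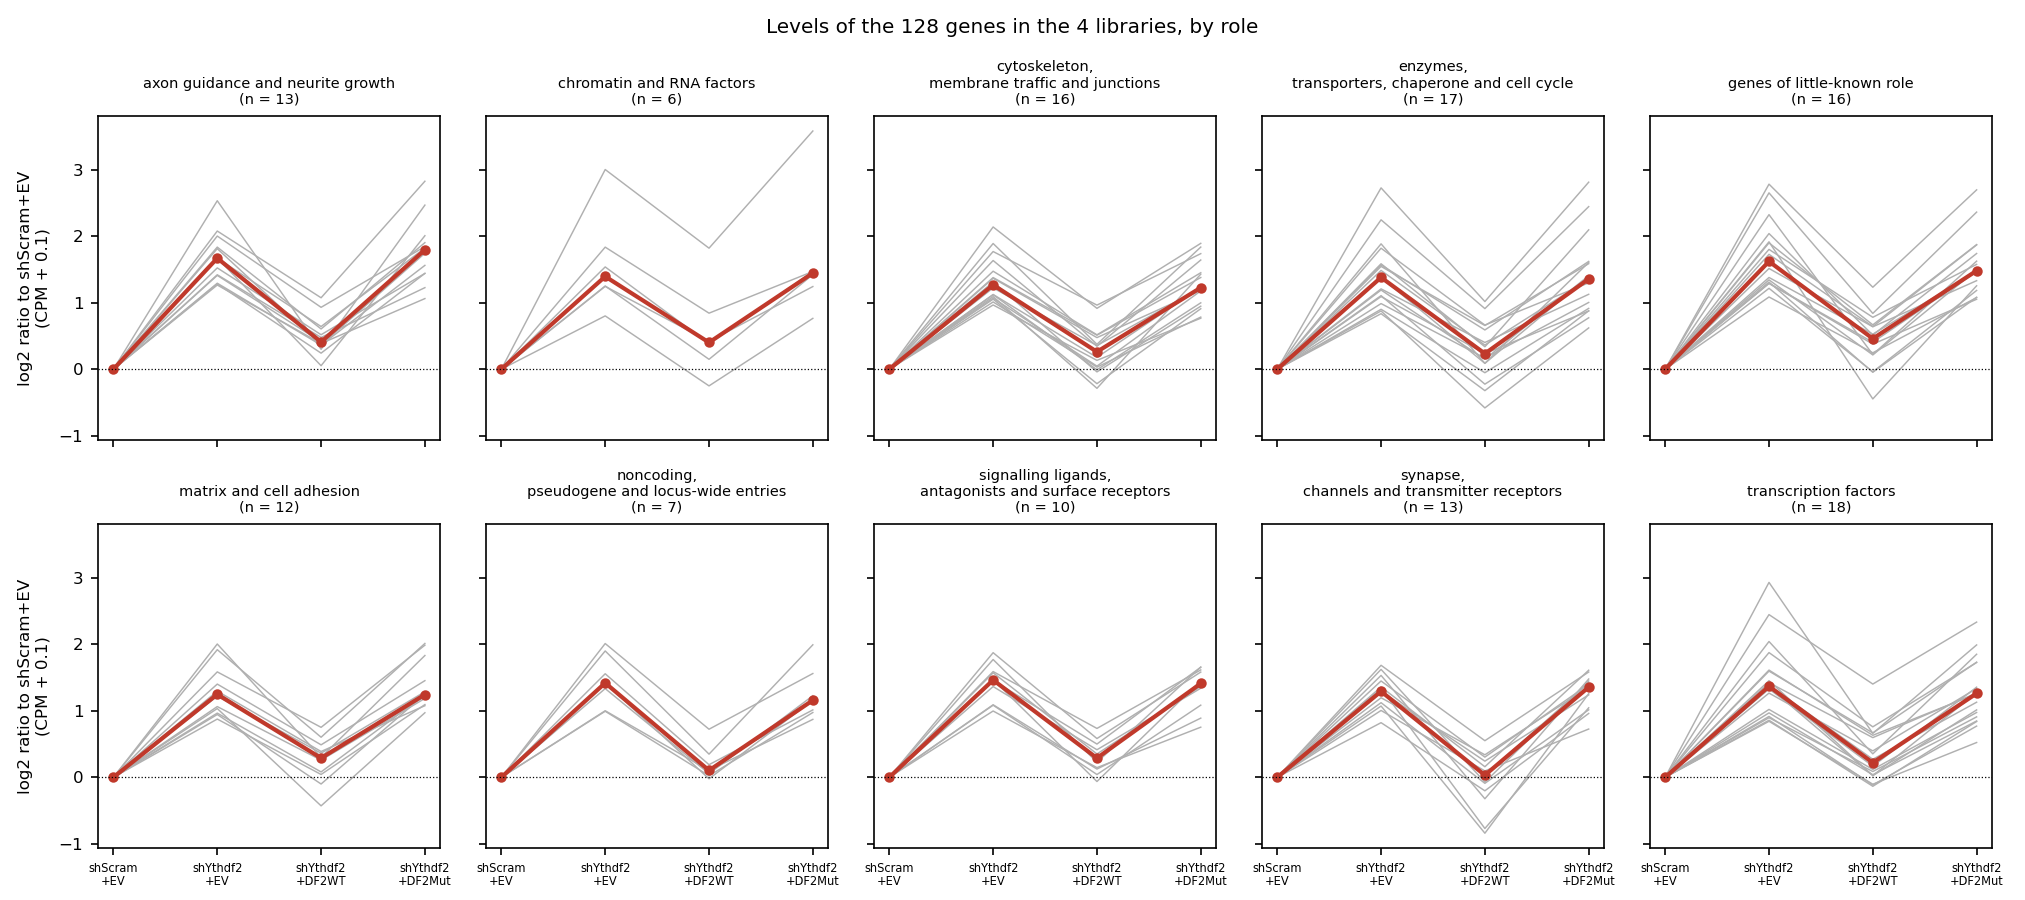
Each panel holds the genes of one role, with each grey line a gene and the red line their median. The y axis is the log2 ratio of a library to shScram+EV (CPM + 0.1). In every panel the median was above 1 in shYthdf2+EV and shYthdf2+DF2Mut and below 0.5 in shYthdf2+DF2WT.

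Most of these genes were little expressed. Their mean count had a median of 212 reads, against 1048 in all genes tested, and was between 100 and 200 in 56 genes. Per kb of exon, the median level in the control library was 0.65 RPKM (CPM divided by the exon length in kb), against 8.13 in all genes tested, and in the knockdown library 1.85 against 8.52. In bulk RNA a level this low in all cells cannot be told apart from a higher level in a few cells. By role, assigned from general knowledge after the values had been seen, the largest groups were transcription factors (18 genes), enzymes, transporters and cell cycle genes (17), cytoskeleton and membrane traffic (16), genes of little-known role (16), axon guidance and neurite growth (13) and synapse and channels (13). The other genes tested were given no role. These counts therefore have no background, and an excess of any role was not tested.

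Axon guidance and neurite growth genes formed the group with the highest median ratio in the knockdown library (1.67), and their median of mutant over wild type was 1.20. *Dcc*, the netrin receptor (chr18:71386703-72484299 on mm39), had 43, 292, 54 and 246 reads. Its reads were low in the control and the wild-type rescue and several times higher in the other pair, with log2 ratios of 2.53 (1.94 to 3.31), -2.23 (-2.95 to -1.70) and 2.17 (1.62 to 2.89), the largest weakest step of all 128. *Robo1*, a receptor for Slit proteins (chr16:71824406-72844379), had 576, 2031, 906 and 1992 reads, and its wild-type level stayed above the control (0.64). The neural adhesion molecule gene *Nrcam* (chr12:44375568-44651977) had 66, 240, 69 and 268 reads, so that the wild-type library was at the control level (0.05). *Crmp1* and *Dpysl3* encode collapsin response mediators, which pass semaphorin signals to the cytoskeleton. *Crmp1* had 295, 1153, 383 and 970 reads, and *Dpysl3* had 383, 1519, 588 and 1404. Their 3 ratios were close to each other (1.81, -1.45 and 1.38 for *Crmp1*, and 1.84, -1.23 and 1.30 for *Dpysl3*). *Crmp1* overlaps exons of *Evc* on the other strand, and the counting did not use strand.

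Other ligands and receptors of axon guidance were among the genes, but netrin and Slit ligands were not. The 3 such ligand genes tested, *Ntn1*, *Slit2* and *Slit3*, had knockdown ratios of 0.36, 0.27 and -0.55. *Efna5* (36, 170, 72 and 134 reads) and *Efnb2* (203, 651, 294 and 542) encode ephrins, membrane-bound ligands of Eph receptors. *Sema3e* (150, 408, 179 and 402 reads) encodes a secreted semaphorin, and *Nrp1* (65, 181, 85 and 193) a co-receptor for semaphorins and VEGF. *Gap43*, a growth cone protein gene, had 236, 703, 332 and 542 reads. *Ptprd*, a receptor phosphatase of synapses that spans 2272809 bases of chromosome 4, had 37, 184, 82 and 275 reads, and its mutant level was above the knockdown level (0.75). The leucine-rich repeat genes *Flrt2* and *Lrrn2* complete the group, with knockdown ratios of 1.41 and 1.27. In all 13 genes the wild-type library was above the control, as it was in 103 of the 128.

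Paralogs of these genes, listed after the values had been seen, did not all share the pattern. Beside *Dcc* and *Robo1*, *Robo4* had ratios of 1.24, -0.76 and 0.79 and missed the wild-type limit narrowly, while *Neo1*, the closest relative of *Dcc*, was at -0.13, 0.09 and 0.16. Of the 7 ephrin genes tested, *Efna5* and *Efnb2* passed the limits, and the other 5 had knockdown ratios between -0.08 and 0.56. Of the collapsin response mediators, *Dpysl5* was at 1.08, -0.42 and 0.20 and *Dpysl2* at -0.34, 0.90 and -0.64. Close relatives within a family thus differed in these libraries.

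**Figure D3:**
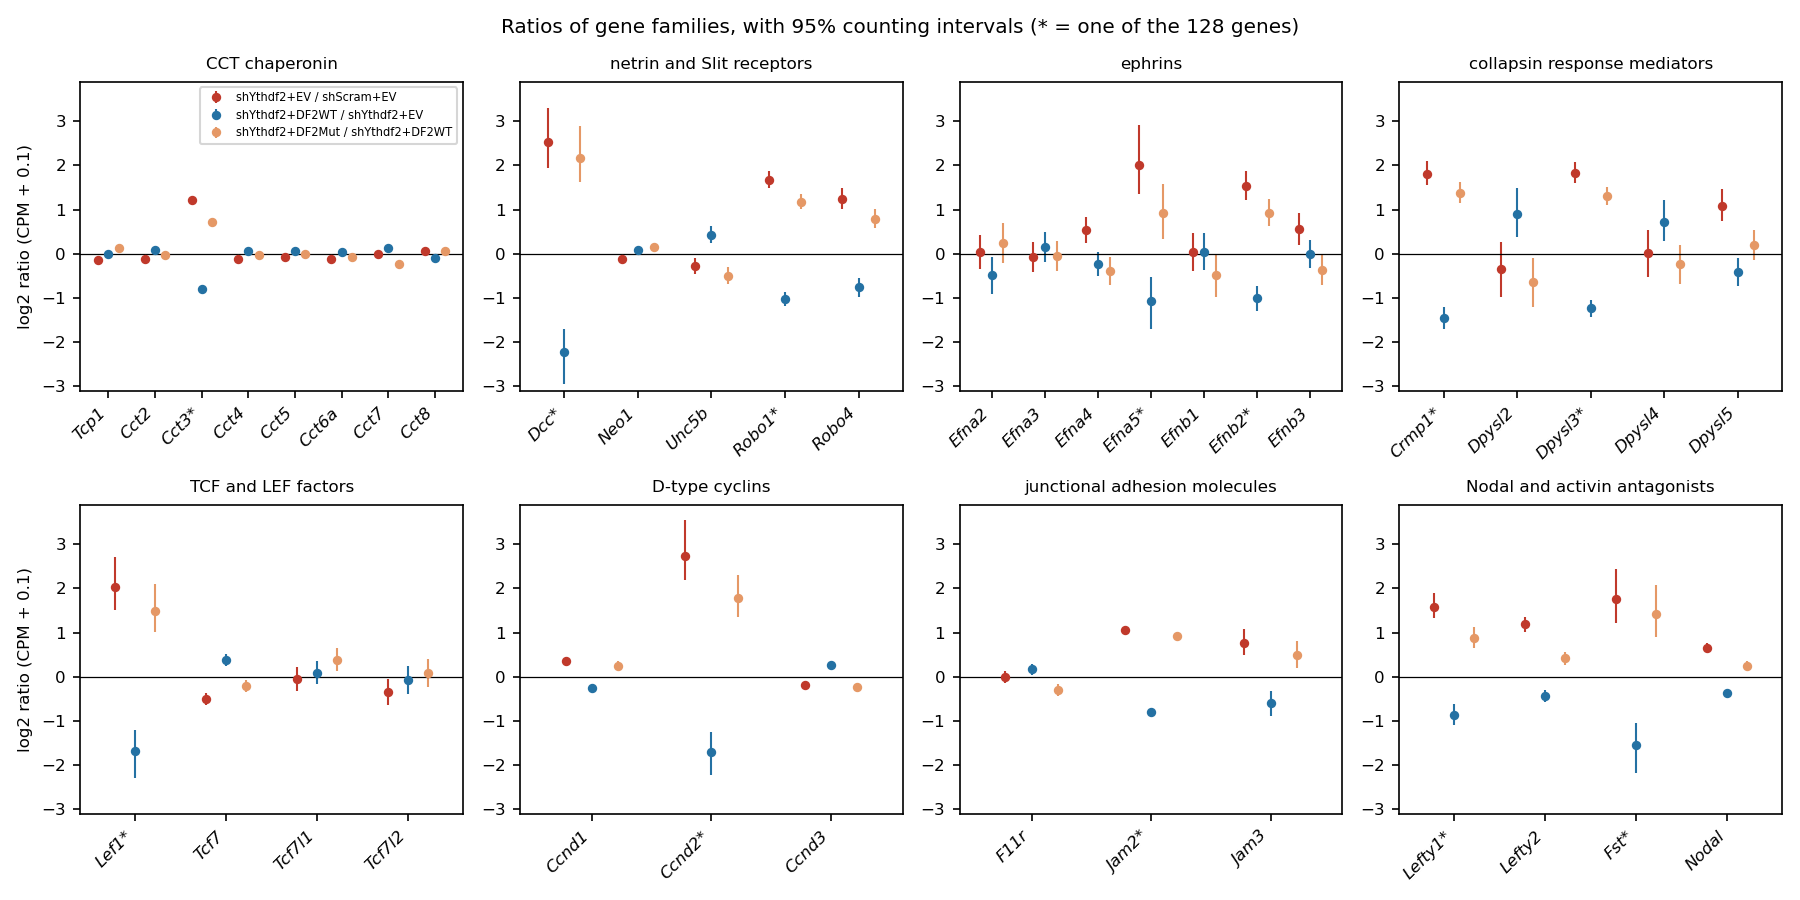
Points give the 3 log2 ratios of the tested genes of 8 families (knockdown over control, red; wild-type construct over knockdown, blue; mutant over wild-type construct, orange), and bars their 95% counting intervals. Genes with an asterisk are among the 128. In the CCT panel 7 of 8 subunits lie between -0.23 and 0.12 in all 3 ratios, and *Cct3* stands apart.

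Synapse, channel and transmitter receptor genes numbered 13. *Pclo*, a scaffold of the presynaptic active zone (chr5:14564924-14913479), had 89, 310, 85 and 242 reads, with ratios of 1.62 (1.18 to 2.19), -1.70 (-2.28 to -1.25) and 1.52 (1.06 to 2.12). *Rims1*, which primes vesicles at the same site, had 63, 196, 79 and 167. *Chrm3*, a muscarinic acetylcholine receptor gene, had 58, 192, 46 and 163 reads.

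Further channel, receptor and adaptor genes belonged to this group. *Ano3* (248, 708, 279 and 744 reads) and *Ano1* (63, 164, 81 and 162) belong to the anoctamin family of scramblases and chloride channels, and *Kctd12* (115, 416, 171 and 342) encodes an auxiliary subunit of GABA-B receptors. *Cnksr2* encodes a postsynaptic scaffold, *Jph1* a junctophilin of muscle, *Neto2* a kainate receptor auxiliary subunit, *Necab1* a calcium-binding protein and *Apba2* an adaptor of the amyloid precursor. Their knockdown ratios lay between 0.82 (*Apba2*) and 1.29 (*Neto2* and *Cnksr2*). The median of the wild-type over the control in this group was 0.03, the lowest of the 10 roles.

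Transcription factor genes numbered 18 and covered several lineages. *Spz1*, a basic helix-loop-helix gene of the testis (chr13:92711139-92712740), had 34, 310, 56 and 141 reads. Its knockdown ratio was 2.93 (2.32 to 3.86), and its log2 ratio of mutant to knockdown was -0.94. *Lef1*, a nuclear partner of beta-catenin in Wnt signalling (chr3:130903946-131018006), had 60, 284, 78 and 219 reads, with ratios of 2.04, -1.69 and 1.50, while its relative *Tcf7* (2125, 1648, 1962 and 1635 reads) was at -0.51, 0.38 and -0.22. *Hoxd13*, a limb patterning gene, had 54, 341, 149 and 278 reads. Neural factors included *Neurod1* (166, 475, 170 and 395 reads), *En2* (124, 381, 127 and 247), *Gbx2* (428, 1273, 653 and 1008) and *Lmx1a* (63, 220, 100 and 151). *Gbx2* is also expressed in naive ESCs, and *Lmx1a* is counted among 2C genes in the marker list used here.

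The homeobox neighbours *Duxbl1* (67, 231, 109 and 224 reads) and *Cphx1* (223, 449, 204 and 391) lie 22213 bases apart on chromosome 14. *Duxbl1* is related to the 2C activator *Dux*, and near-identical copies make both counts uncertain. *Gli3* (610, 1256, 652 and 1118 reads), which answers Hedgehog signals, and *Bnc2* (768, 1724, 839 and 1473) were the more abundant factors. *Ebf1*, a B cell factor, had 109, 319, 133 and 236 reads. *Lmo4*, *Mkx*, *Zfp618*, *Zfp758*, *Zfp119a* and *Zfp40* had knockdown ratios between 0.84 (*Zfp40*) and 1.88 (*Zfp618*). The last 4 are zinc finger genes, and *Zfp758* overlaps *Zfp944* on the other strand.

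Signalling genes were mostly secreted ligands or their antagonists. *Fst*, which encodes follistatin, an activin antagonist (chr13:114588798-114595522), had 59, 231, 70 and 188 reads, and *Lefty1*, a Nodal antagonist, had 265, 888, 446 and 797. *Lefty2* (842, 2119, 1431 and 1853 reads) had a knockdown ratio of 1.19 but a wild-type ratio of -0.43, short of the limit. *Nodal* itself was at 0.66, -0.36 and 0.25. *Dll1*, a Notch ligand, had 78, 263, 101 and 201 reads; *Jag1* was at 0.69, -0.57 and 1.06 and *Jag2* at -0.17, 0.59 and -0.55. *Kitl*, the KIT ligand, had 89, 276, 128 and 280 reads. *Fgf1*, *Fgfbp1* (an FGF carrier), *Igfbp3* (an IGF carrier), *Crim1* (a BMP antagonist), *Lpar4* (a lysophosphatidic acid receptor) and *Cd80* (a T cell costimulator) had knockdown ratios between 1.00 (*Fgf1*) and 1.87 (*Fgfbp1*). *Crim1* overlaps *Fez2* on the other strand.

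Matrix and adhesion genes held some of the more abundant members. *Jam2*, a junctional adhesion molecule gene (chr16:84571011-84623268), had 6278, 14490, 7556 and 13919 reads, and its ratios of 1.06 (1.00 to 1.13), -0.81 (-0.86 to -0.75) and 0.93 (0.87 to 0.99) were narrow in counting error and just inside the wild-type limit. *Jam3* (0.78, -0.60 and 0.50) ran the same way with smaller ratios, and *F11r* (-0.01, 0.17 and -0.30) did not. *Vcan*, the proteoglycan versican, had 983, 2122, 1046 and 2266 reads, and *Dcbld1*, a membrane protein gene, 1092, 2814, 1414 and 2600. *Col5a2*, a fibrillar collagen chain (chr1:45413491-45542442), had 47, 219, 59 and 171 reads, with ratios of 2.01, -1.70 and 1.53. *Cdh2*, N-cadherin, had 89, 302, 153 and 353 reads. *Serpine2* (636, 1861, 899 and 1702 reads) and *Serpini1* encode protease inhibitors, *Itga8* an integrin chain, *Plxdc2* a plexin-domain membrane protein and *Sned1* a matrix protein. *Pdgfrl* and *Pcdhga1* were also in the group, and the knockdown ratios of these last genes lay between 0.88 (*Sned1*) and 1.92 (*Plxdc2*). *Pcdhga1* shares its last exons with the other genes of its protocadherin cluster, so its count is uncertain.

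Genes of the cytoskeleton, membrane traffic and junctions numbered 16. *Arhgef26*, a guanine nucleotide exchange factor gene (chr3:62244946-62369642), had 588, 2416, 768 and 2054 reads, with ratios of 1.89 (1.71 to 2.09), -1.52 (-1.69 to -1.35) and 1.46 (1.30 to 1.64). *Scamp1*, a secretory carrier membrane protein gene, had 1037, 2311, 1066 and 1741 reads. Further exchange factor genes were *Dock10* (145, 336, 125 and 268 reads) and *Fgd4* (282, 657, 293 and 625). *Dab2*, an endocytic adaptor that also marks primitive endoderm, had 99, 237, 81 and 265 reads. *Amot*, a junction protein that holds back YAP, had 112, 273, 112 and 221 reads. *Nhs*, *Cass4*, *Marveld1*, *Cobll1*, *Dnah7c* (a dynein chain with near-identical copies), *Sh3kbp1*, *Txlnb*, *Anxa1* (annexin) and *Inka2* had knockdown ratios between 0.97 (*Anxa1*) and 2.14 (*Cass4*).

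**Figure D4:**
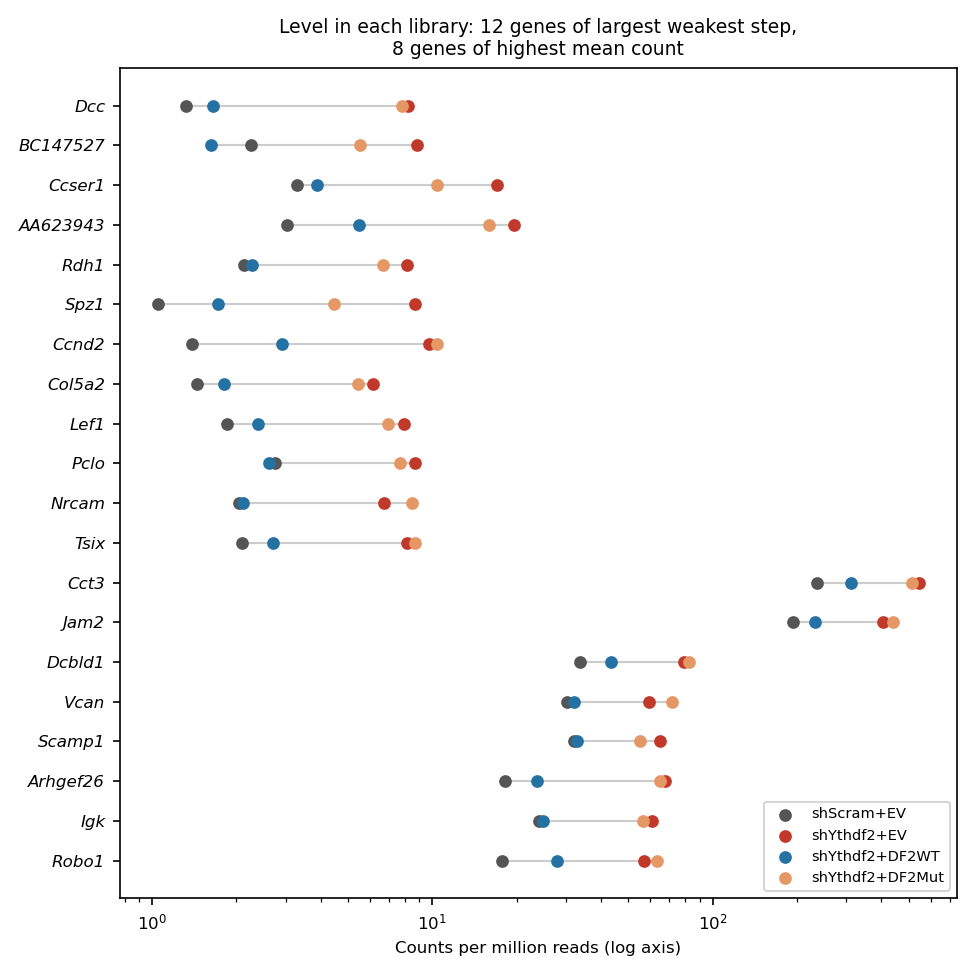
Each row is a gene and each point its level in one library, in CPM on a log axis. The upper 12 rows are the genes with the largest weakest step and the lower 8 those with the highest mean count. In every row shYthdf2+EV and shYthdf2+DF2Mut lie to the right of shScram+EV and shYthdf2+DF2WT.

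Enzymes, transporters, a chaperone and a cyclin made up 17 genes. *Cct3*, a subunit of the CCT chaperonin that folds actin and tubulin (chr3:88204442-88229073), had the highest mean count of all, with 7624, 19447, 10137 and 16213 reads. The 7 other subunits tested had knockdown ratios between -0.14 and 0.05, against 1.21 (1.15 to 1.26) for *Cct3*, although all work in one complex. *Ccnd2*, cyclin D2 (chr6:127102125-127131913), had 45, 349, 95 and 327 reads, with ratios of 2.73, -1.71 and 1.80. *Ccnd1* was at 0.35, -0.26 and 0.26 and *Ccnd3* at -0.19, 0.26 and -0.24, both with far more reads than *Ccnd2*. *Rdh1*, a retinol dehydrogenase gene (chr10:127595595-127604168), had 69, 291, 74 and 211 reads. *Ptgs2*, the inducible cyclooxygenase, had 36, 202, 71 and 205.

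Ubiquitin ligase genes in this group were *Hecw2* (141, 411, 151 and 366 reads), *Trim36* (125, 416, 191 and 381), *Trim75* (49, 200, 80 and 122) and *Lonrf2* (96, 201, 93 and 179). *Nt5e*, the surface 5′-nucleotidase CD73, had 303, 943, 393 and 761 reads. *Abcb5* (a transporter), *Plch1* (a phospholipase C), *Nrk* (a kinase of the placenta), *St8sia6* (a sialyltransferase), *Ggct* (a glutathione pathway enzyme), *Fign* (a microtubule-severing ATPase), *Lipo3* (a lipase) and *Vopp1* had knockdown ratios between 0.83 (*St8sia6*) and 1.59 (*Nrk*).

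Chromatin and RNA factors numbered 6. *Asxl3*, a partner of the BAP1 deubiquitinase, had 14, 149, 58 and 198 reads, the highest knockdown ratio of all 128 (3.00, 2.15 to 4.62) and the fewest control reads. *Cpeb2*, which binds 3′ UTRs and controls translation, had 137, 446, 181 and 375. *Ezhip*, an inhibitor of Polycomb repressive complex 2, had 223, 888, 405 and 607 reads. *Lrif1* (a chromatin protein of the inactive X; 495, 955, 418 and 821 reads) was just inside the knockdown limit, at 0.80. *Nap1l2*, a histone chaperone of neurons, and *Papolb*, a testis poly(A) polymerase, had knockdown ratios of 1.25 each.

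Noncoding, pseudogene and locus-wide entries numbered 7. *Tsix* (chrX:102475123-102528563), the antisense partner of *Xist*, had 68, 290, 88 and 273 reads. *Xist* itself had 298, 254, 235 and 289, an order not shared with *Tsix*. The genes overlap, and the counting did not use strand and left out reads of several genes. Reads in exons that they share were therefore counted for neither. *Snhg14*, the long host transcript that runs through the imprinted *Ube3a* region, had 578, 1274, 591 and 1109 reads, while *Ube3a* had ratios of 0.21, -0.37 and 0.38. *Eif4a3l2*, an intronless copy of the helicase gene *Eif4a3*, had 506, 1651, 581 and 998 reads. A second copy, *Eif4a3l1*, was at 1.55, -1.20 and 0.58, just outside the mutant limit, and *Eif4a3* itself was at 0.09, 0.13 and -0.28. *Spopfm1* and *Kdm4dl* are pseudogene entries, with 104, 313, 103 and 230 reads and 80, 367, 135 and 236 reads. *Igk* (776, 2165, 811 and 1773 reads) and *Igh* (318, 706, 344 and 569) are entries for the whole immunoglobulin loci, whose exon lengths of 3171119 and 2751187 bases take in everything transcribed there, so that they cannot be read as antibody mRNA.

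Genes of little-known role numbered 16. *BC147527* (chr13:120761735-120770379) had 73, 314, 53 and 174 reads and the lowest wild-type ratio of all (-2.36, -3.12 to -1.86), and *AF067061*, 35682 bases away, had 109, 506, 158 and 362. *Ccser1* (chr6:61156942-62359847) had 107, 606, 126 and 328 reads, and *AA623943* (chr11:94703625-94708477) had 98, 699, 179 and 504. *Ccdc85a* had 40, 325, 99 and 270 reads and a knockdown ratio of 2.78. *Soga3* (318, 1233, 552 and 930 reads) shares exons with *9330159F19Rik*, a gene set aside by name. *AU015228*, *BB287469*, *Elapor2*, *Fam184a*, *Faxc*, *Itm2a*, *Parm1*, *Samd12*, *Spesp1* and *Tmem28* had knockdown ratios between 1.09 (*BB287469*) and 1.90 (*Tmem28*). *Spesp1* is a sperm acrosome gene. Clone-named genes such as *BC147527*, *AF067061*, *AA623943* and *BB287469* stayed in because the names left out do not cover them, and each of the 4 lies within 100 kb of another of them or of a predicted gene past the limits. The like-named *AF067063*, also on chromosome 13 (34, 119, 42 and 73 reads), is among the names left out and in the 2C marker list used here.

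The rule had not used the structure or position of the genes. The gene span had a median of 73133.5 bases, against 22885.5 in all genes tested, and 40.6% of the genes were longer than 100 kb, against 12%. The longest exon (2598 against 1517 bases) and the 3′ UTR (2113 against 1238) had higher medians, while both sets had a median of 9 exons. Chromosome X held 11 genes (8.59%, against 3.57% of all genes tested) and chromosome 18 held 8 (6.25% against 2.56%). Within 100 kb of another gene past the limits lay 8 genes (6.25% against 2.6%). An exon of another gene overlapped 30 genes on the opposite strand and 8 on the same strand. Their counts are uncertain, since counting was unstranded and left out reads of several genes. The share of all genes tested with such an overlap was not computed, so no excess can be read from these counts.

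GC content moved with 2 of the ratios. The median GC of the transcripts was 46.4%, against 50% in all genes tested, and 76.2% of the genes were below 50%, against 49.7%. Across the 11823 tested genes with a GC value, the Spearman correlation with GC was -0.04 for knockdown over control, 0.43 for wild-type construct over knockdown and -0.50 for mutant over wild-type construct, a description across genes of the same 4 libraries. When each ratio was centred on the median of genes of like GC in 20 bins, 94 of the 122 genes with a GC value still passed the limits, and 28 did not. By role, those that passed were 13 of 13 axon guidance genes, 16 of 18 transcription factors, 12 of 15 genes of little-known role, 8 of 10 signalling genes, 10 of 13 synapse and channel genes, 9 of 12 matrix and adhesion genes, 11 of 17 enzymes, 10 of 16 cytoskeleton genes, 3 of 5 chromatin and RNA factors and 2 of 3 noncoding and pseudogene entries. Among the genes that did not pass were *Jam2*, *Vcan*, *Scamp1*, *Anxa1*, *Kitl*, *Fgf1*, *Snhg14* and *Neto2*. After centring, 3.87% of the genes with a GC value passed the limit on mutant over wild-type construct and 1.45% all 3 limits, names disregarded.

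**Figure D5:**
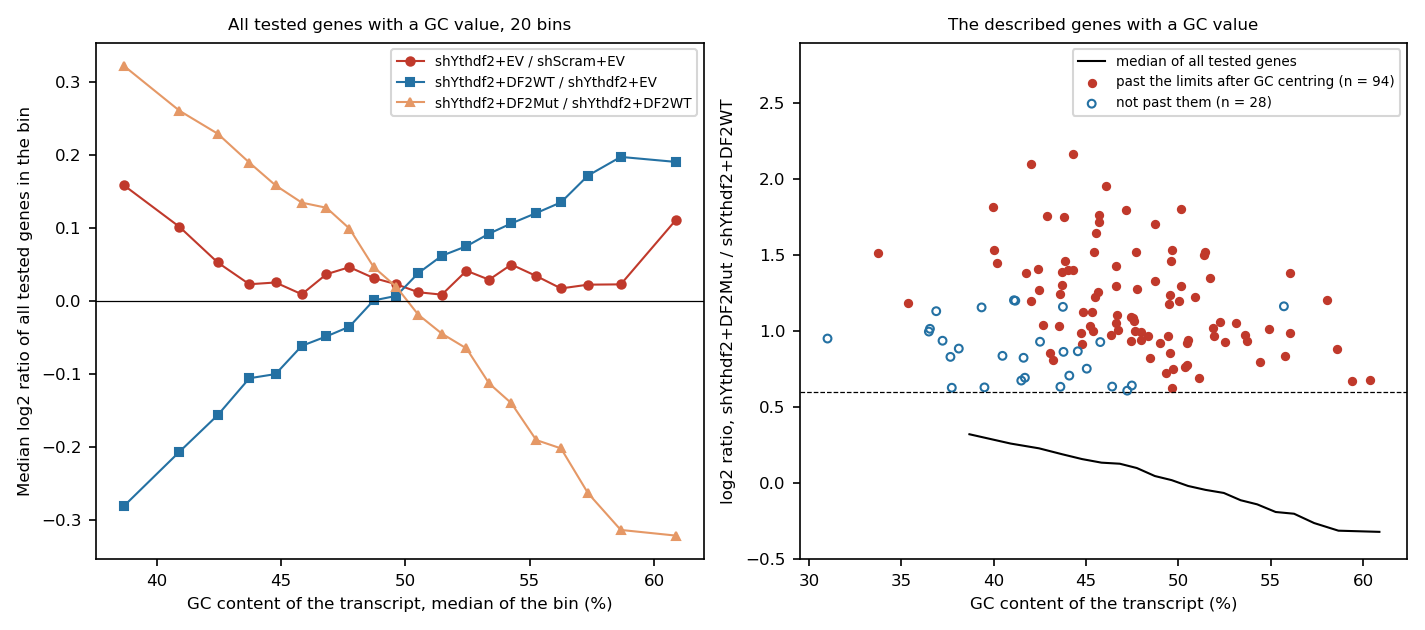
Left, the median log2 ratio of all tested genes in 20 bins of transcript GC content (percent), for the 3 ratios; that of mutant over wild-type construct goes from 0.32 in the lowest bin to -0.32 in the highest. Right, mutant over wild-type construct (log2 ratio) in the 122 genes with a GC value, filled where all 3 limits held after GC centring and open where they did not; open points are mostly at low GC.

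Genes of chromosome 12 had shifted ratios as a whole, with medians that differed from those of other autosomes by -0.30 in knockdown over control, 0.20 in wild-type construct over knockdown and -0.18 in mutant over wild-type construct. *Nrcam*, *Flrt2*, *Abcb5*, *BB287469* and *Igh* lie there, and they passed the limits against that shift.

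Marker lists, written with earlier results of these data known, were set beside the genes. Of 15 tested 2C genes outside the repeated families, 10 passed the knockdown limit and 8 all 3 limits; *Spz1*, *Lmx1a* and *Cphx1* are among the 128, and the other 5 were left out by name. Over all 25 listed genes, tested or not, the summed level was 268, 376, 312 and 358 CPM. *Elf3*, the most abundant of them, ran the opposite way (3353, 2578, 3929 and 2454 reads). Naive pluripotency genes did not share it: 0 of 13 passed the knockdown limit upward and their median ratio was 0.02. Of 8 formative and primed genes, 4 passed the knockdown limit and 2 all 3 (*Lef1* and *Cdh2*). Of 8 primitive endoderm genes 1 passed (*Dab2*), and *Gata6* (85, 163, 69 and 143 reads) missed the knockdown limit narrowly, at 0.77. Of 5 trophectoderm genes none passed that limit and 2 had a ratio of at most -0.8, as did 291 of all genes tested. Of 5 fibroblast genes 1 was above it (*Twist1*) and 1 as far below, with *Dcn* and *Lum* at 0 in every library. Of 12 germline genes none passed in either direction. Of 14 p53 target genes 2 passed the knockdown limit and none all 3, with a median of 0.43. Of 12 immediate early genes 2 were higher and 2 lower, and of 22 genes for m6A readers and deadenylation 1 was lower, *Ythdf2* itself. The part of 2C-like cells in the values of the 128 genes was not tested.

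Values just inside and just outside each limit are given as a description. On the mean count, *Faxc* (101.5), *Efna5* and *Fign* were just inside and *Lix1* (99), *Ptprz1* (97) and *Mir9-3hg* (95.5) just outside. On the knockdown ratio, *Lrif1* (0.80), *Apba2* (0.82) and *St8sia6* (0.83) were inside and *Gata6* (0.77), *Tmtc3* (0.75) and *Nova1* (0.73) outside. On the wild-type ratio, *Jam2*, *Inka2* and *Cct3* (each -0.81) were inside and *Myc*, *Kdr* and *Hdac9* (-0.79, -0.79 and -0.78) outside. On the mutant ratio, *Fgf1* (0.61), *Lmx1a* (0.63) and *Ezhip* (0.63) were inside and *Akr1cl* (0.59), *H2bc4* (0.58) and *Eif4a3l1* (0.58) outside. Genes that failed a single limit numbered 418 for the mean count, 19 for the knockdown, 59 for the wild type and 11 for the mutant.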

How the data were processed

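The deposited values are whole-number read counts per gene. Counting by the authors used featureCounts 2.0.3 (per the file headers) at exons of the mm39 RefSeq annotation, without strand and by reads rather than pairs, leaving out reads with several alignments or several genes; the submitters' notes name fastp 0.19.4, HISAT2 2.2.1, DESeq2 1.40.2 and mm10, so the build of the alignment is uncertain. Counts from near-identical copies are therefore too low by an unknown amount. The study's methods speak of replicates, while the labels give 1 library per group.

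Counts were divided by each library's total (CPM), 0.1 was added, and log2 ratios were taken in Python 3.11.15 with pandas 2.3.3 and SciPy 1.17.1. The 95% Clopper-Pearson intervals used reads divided by 2 as pairs. Amplified reads are not independent molecules. Summed exon lengths in the table gave RPKM. Scaling factors came from edgeR 4.0.16 and DESeq2 1.42.0 in R 4.3.3, as alternatives. The selection code was run on simulated counts that held counting error only. That run checks the code and says nothing about differences between cultures or about the genes chosen. Transcript features (GENCODE vM21) were matched by symbol.

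Of the 128 genes, 3 are not reported here by name; the others were all named, with reads for the 12 of largest weakest step, the 8 of highest mean count and those described by role. The genes, marker lists, roles and families were chosen with earlier results of these data known.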

Additional observations from a re-analysis of the deposited data

How the results depend on the processing

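The number of named genes past the limits was 128. It was 72 with a mean count of at least 200, 546 with no minimum on the mean count, 57 with limits of 1, -1 and 1, and 36 when the limits were put on the counting bound nearest to 0. The other 9 settings gave counts between 97 (1 CPM added) and 179 (mean count of at least 50), among them 124 with TMM factors, 129 with DESeq2 size factors, 136 with upper-quartile scaling and 126 without mitochondrial and Y-linked genes in the total. With GC centring it was 108, of which 94 were among the 128, against 122 for the members with a GC value uncorrected. Without chromosome 12 it was 123. The last 2 settings were chosen after seeing the data. The medians of the 5 ratios moved by less than the median gene's counting error and kept their sign under the 6 settings run on them. Of single genes, *Apba2*, *Lrif1* and *St8sia6* missed the limits under each of the other scalings by factors, and 31 of 128 missed them with 1 CPM added, where low genes have smaller ratios by construction; no ratio reversed. No paired analysis was possible because each group holds 1 library. Depth limits the genes of fewest reads most: *Asxl3* had 14 control reads. No library could be left out.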

Other observations

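Some genes too scarce for the selection stood in the same order of libraries. Between mean counts of 50 and 100 lay 1701 genes, of which 89 (5.23%) passed the 3 ratio limits and 51 (3%) did so with names that the rule keeps, against 1.89% and 1.04% of the genes tested in the report. Their counts carry more counting error. *Pcdh19*, a protocadherin gene, had 20, 131, 35 and 90 reads in the order shScram+EV, shYthdf2+EV, shYthdf2+DF2WT, shYthdf2+DF2Mut. *Ntm*, neurotrimin, had 12, 89, 40 and 96, and *Fat3*, an atypical cadherin gene, 16, 72, 19 and 116. *Thbs1*, the matrix protein thrombospondin, had 23, 107, 35 and 85 reads, and *Plcb1*, a phospholipase C, 43, 159, 30 and 101. *Nedd9*, a docking protein related to *Cass4*, had 14, 102, 39 and 83. *Foxa1*, an endoderm factor, had 52, 116, 44 and 113. These 7 examples of the 51 were chosen after their values had been seen, and no theme of function was tested.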
